A study of Mus musculus with 8 samples.

Results

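A set of 8 genes that TGFβ or BMP signalling is known to switch on was examined in the periventricular area of mice without *Lrig1* and of WT mice, namely *Ccn1*, *Ccn2*, *Tgfbi*, *Pmepa1*, *Tgif1*, *Klf10*, *Atoh8* and *Msx1*. They were picked by name as transcriptional targets other than the Id family, and are 8 of the 54307 gene identifiers in the count table. Messenger RNA was sequenced after polyA selection from 4 KO mice (2 female, 2 male) and 4 WT mice (3 female, 1 male) at 8 weeks of age, from 1 hemisphere per mouse. The tissue was the area around the lateral ventricle that holds the ventricular-subventricular zone (V-SVZ), the niche of adult neural stem cells. All mice were on the 129 strain background, given as 129-Elite in the methods. KO mice carried CreERT2, a drug-inducible Cre recombinase, knocked into exon 1 of both copies of *Lrig1*. WT mice were littermates with 2 normal copies. The loss of *Lrig1* was therefore lifelong and in every tissue, and not limited to stem cells, and the sequenced tissue mixed many cell types. Fewer cells of a type and less RNA per cell cannot be told apart in such samples.

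TGFβ and BMP ligands bind pairs of serine/threonine kinase receptors, which phosphorylate SMAD2 and SMAD3 (TGFβ) or SMAD1, SMAD5 and SMAD9 (BMP). The phosphorylated SMADs join SMAD4, enter the nucleus and act on target genes. In the V-SVZ, BMP signalling is known to hold neural stem cells in quiescence, and TGFβ slows their division. The genes examined here do different jobs in that pathway. *Ccn1* and *Ccn2* encode secreted matricellular proteins and are also targets of YAP, *Tgfbi* encodes a secreted matrix protein, *Pmepa1* and *Tgif1* encode inhibitors of TGFβ signalling, and *Klf10* encodes a zinc-finger repressor induced early by TGFβ. *Atoh8* and *Msx1* encode transcription factors (basic helix-loop-helix and homeodomain) that BMP induces.

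The upstream sequences of 3 of the genes are shown because *Msx1* had the lowest p-value of the 8 between KO and WT, and because *Ccn1* and *Tgfbi* each held 2 of the 3 motifs searched for. The first motif was the SMAD-binding core CAGAC, which reads as GTCTG when it lies on the opposite strand. The second was the GC-rich SMAD site GGCGCC, which reads alike on both strands. The third was CATTCC, read as GGAATG on the opposite strand, the core bound by TEAD factors, the partners of YAP. No match of one motif overlapped a match of another in the windows shown. Each window below is the 250 bases before the annotated start, 5′ to 3′ on the gene's strand, from RefSeq on GRCm38.p6, with the motifs in capitals. *Ccn1* is at chr3:145649986-145650235 (minus strand), *Tgfbi* at chr13:56609336-56609585 (plus strand) and *Msx1* at chr5:37824586-37824835 (minus strand).
Ccn1: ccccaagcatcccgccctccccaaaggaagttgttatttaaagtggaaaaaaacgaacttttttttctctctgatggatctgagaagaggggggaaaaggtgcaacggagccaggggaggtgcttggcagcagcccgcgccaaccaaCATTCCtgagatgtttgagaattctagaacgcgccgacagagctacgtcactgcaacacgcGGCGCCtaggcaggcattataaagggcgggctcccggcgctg
Tgfbi: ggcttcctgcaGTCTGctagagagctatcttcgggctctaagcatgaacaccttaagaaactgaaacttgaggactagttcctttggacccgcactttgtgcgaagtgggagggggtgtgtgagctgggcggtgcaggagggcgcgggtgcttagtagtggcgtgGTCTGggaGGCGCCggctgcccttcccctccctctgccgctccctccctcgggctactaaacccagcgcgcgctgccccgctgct
Msx1: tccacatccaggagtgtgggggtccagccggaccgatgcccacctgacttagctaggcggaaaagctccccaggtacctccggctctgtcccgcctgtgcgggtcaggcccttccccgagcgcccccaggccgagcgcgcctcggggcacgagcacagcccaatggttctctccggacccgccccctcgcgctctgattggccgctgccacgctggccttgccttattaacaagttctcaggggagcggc
In *Ccn1*, CATTCC began 103 bases and GGCGCC 42 bases before the start. In *Tgfbi*, the CAGAC core (read as GTCTG) began 239 and 85 bases before the start, and GGCGCC 77 bases before it. The *Msx1* window held none of the 3, and neither did that of *Atoh8*. *Tgif1* had 5 annotated starts, and 3 of their windows held CAGAC. Of 32851 windows of the same length over all genes, 42.2% held CAGAC, 9.59% held GGCGCC and 12.6% held CATTCC. A match is a description of the letters and not of binding. *Ccn2*, *Pmepa1* and *Klf10* had no window in the promoter set used here, so their upstream sequences were not searched for the motifs.

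The 8 genes differed widely in level. On the TPM scale, which corrects for transcript length, the order of the medians over the 8 mice was *Pmepa1* (30.3 TPM), *Klf10* (9.91), *Ccn1* (2.88), *Ccn2* (2.72), *Tgfbi* (1.75), *Msx1* (1.48), *Tgif1* (1.33) and *Atoh8* (0.50). *Pmepa1* lay above *Klf10*, and *Klf10* above *Ccn1*, with no overlap of their ranges in the 8 mice. From *Ccn1* downwards the ranges of neighbours overlapped. *Tgif1* was nevertheless above *Atoh8* within each of the 8 mice, and *Tgfbi* was above *Msx1* within 7 of 8. Among 17613 genes tested in edgeR with a name and a TPM value, *Pmepa1* stood at percentile 78.5 by its median and *Atoh8* at percentile 13.7.

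**Figure D1:**
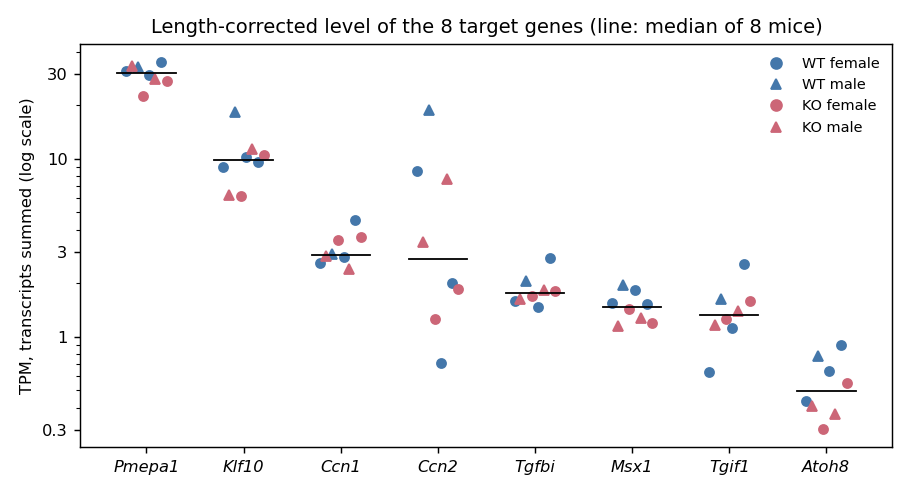
TPM summed over the transcripts of each gene, on a log axis, in each of the 8 mice, with a line at the median. *Pmepa1* and *Klf10* sit above the other genes, and *Ccn2* has the widest spread, from 0.714 to 18.8 TPM.

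Most of the signal came from 1 transcript per gene. *Ccn1*-201 and *Msx1*-201 took all of the TPM of their genes in each of the 8 mice, and *Tgfbi*-201 took between 83.9 and 100% of its own. In *Pmepa1*, the main transcript *Pmepa1*-201 had a share of 87.1% ± 4.12 in WT and 89.0% ± 7.04 in KO (SD, n = 4 in each group), and the short *Pmepa1*-203 took the rest. In *Ccn2*, KO 4 gave 0.893 TPM to *Ccn2*-202, a transcript of 343 bases, beside 0.958 TPM for the main *Ccn2*-201, while the other 7 mice had 0 TPM for *Ccn2*-202. The reads of *Tgif1* were spread over 11 of its 12 annotated transcripts, of which *Tgif1*-201 took 59.6% ± 10.4 in WT and 63.0% ± 14.9 in KO (SD, n = 4 in each group). In *Atoh8*, only WT 2 gave most of its TPM to transcripts other than the main *Atoh8*-201, which had a share of 34.1% there. With 29 to 63 counts per mouse for the whole gene, such splits of *Atoh8* rest on few reads.

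The deposited counts summed to between 47887437 and 74482334 per mouse. *Lrig1* itself was at 13.5 to 45.6 CPM (counts scaled to library size by TMM normalization) in WT and 1.17 to 4.15 CPM in KO, so every KO mouse lay below every WT mouse, as labelled. By summed CPM, markers of the niche and of its surroundings were present in every mouse: neuroblasts at 487 to 593, ependymal cells at 32.7 to 75.2, astrocytes and stem cells at 4220 to 5191, and striatal medium spiny neurons at 2354 to 7568. Single abundant genes weighed most in some sums. In the neuroblast list *Tubb3* alone was at 298 to 381 CPM and *Dcx* at 24.7 to 33.2 CPM. In the astrocyte and stem cell list *Slc1a2* alone was at 2407 to 3193 CPM. These sums therefore do not measure how much of the niche each sample held. The 8 markers of cortical excitatory neurons, a cell type outside the niche, varied most, by 33.6 times. Their sum was 423, 2091, 120 and 297 CPM in WT 1 to 4 and 550, 110, 992 and 62.3 CPM in KO 1 to 4. It was between 550 and 2091 CPM in the 3 male mice (WT 2, KO 1 and KO 3) and between 62.3 and 423 CPM in the 5 female mice. The sexes did not overlap, so sex and cortical content cannot be told apart. The p-values below measure the spread between these mice.

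KO was compared with WT gene by gene to ask whether targets of the pathway beyond the Id genes differed when *Lrig1* was absent. All 8 genes passed edgeR's filter on low counts, and 0 of 8 passed an adjusted p under 0.1, where the same test called 1 of 17669 genes, 0.00566% (edgeR, quasi-likelihood test, Benjamini-Hochberg adjusted). That test did not call *Lrig1* itself either (log2 fold change -3.80, rank 3, adjusted p = 0.286), so a count of 0 says little about the absence of smaller differences. DESeq2 with sex as a covariate called 201 genes (1.13%), and likewise 0 of the 8. An unadjusted p under 0.05 was reached by 1 of the 8 genes, *Msx1*, and by 1.88% of all genes tested. The log2 fold change of KO over WT was below 0 for 7 of the 8 genes and above 0 for *Tgif1*, against 50.3% of all genes below 0. *Ccn1*, among the 7, was at -0.00093, and the count below 0 ran from 5 to 8 when single mice were left out. The median of the 8 was -0.26, and that of all genes tested was -0.00094. For 0 of the 8 did the CPM of the 4 KO mice and the 4 WT mice fail to overlap, where 1.53% of all genes did so, 0.877% with KO the lower.

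**Figure D2:**
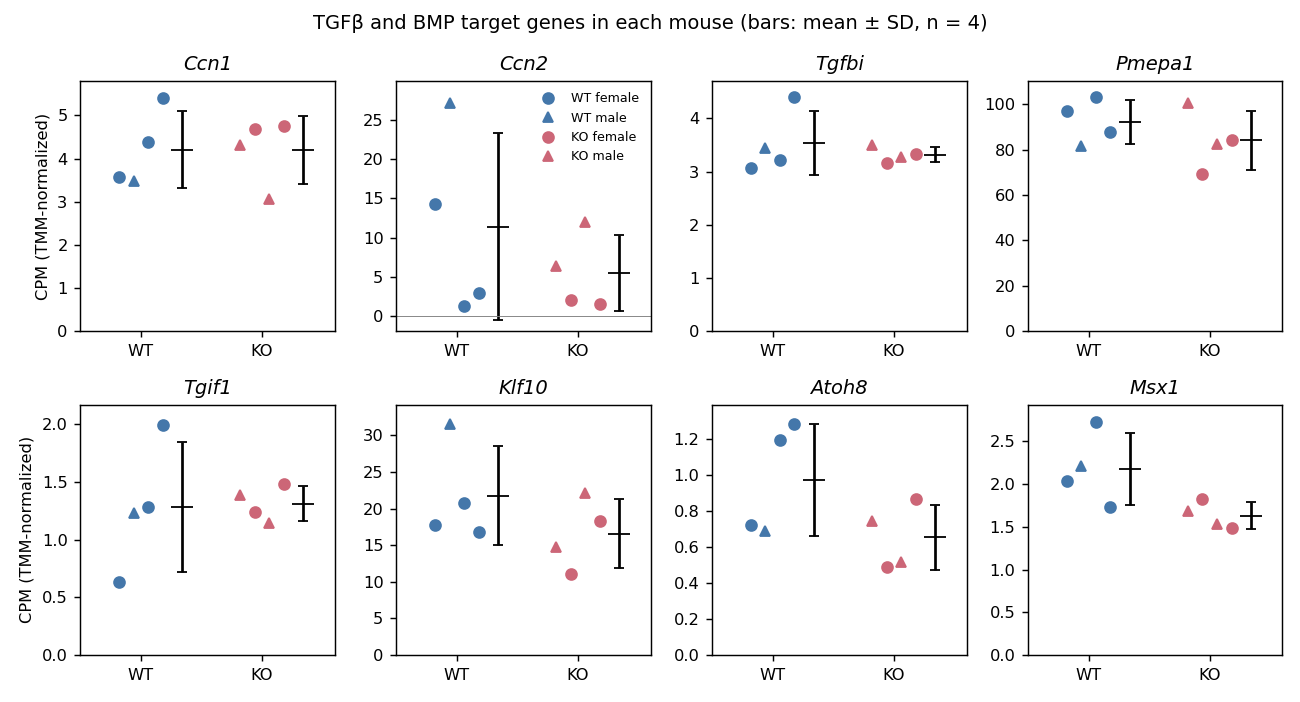
TMM-normalized CPM of the 8 genes in each mouse, WT in blue and KO in red, females as circles and males as triangles, with the mean ± SD (n = 4) in black. The KO mice overlap the WT mice in each of the 8 panels, least in *Msx1*, where KO 2 at 1.83 CPM passes WT 4 at 1.73 CPM.

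*Msx1* (ENSMUSG00000048450.11) had the smallest p of the 8 genes, and is a BMP target. It had 2.03, 2.21, 2.73 and 1.73 CPM in WT 1 to 4 and 1.68, 1.83, 1.54 and 1.48 CPM in KO 1 to 4. The KO mice lay together at the low end, and the groups overlapped only through WT 4, which was below KO 2. The mean was 2.18 ± 0.42 CPM in WT and 1.63 ± 0.16 CPM in KO (SD, n = 4 in each group). On the log2 scale KO was at -0.41 relative to WT (standard error 0.17, 95% interval -0.81 to -0.02). Its unadjusted p was 0.041, rank 254 of the genes tested, and its adjusted p was 0.9998 (edgeR, quasi-likelihood test, Benjamini-Hochberg adjusted). On the TPM scale the groups did not overlap, with WT between 1.53 and 1.96 TPM and KO between 1.16 and 1.43 TPM, as for 1.01% of the genes tested, 0.732% of them with KO the lower. TPM were not normalized between mice, unlike CPM, and WT 4 was above KO 2 in TPM but below KO 2 in CPM. The median log2 fold change of all genes was -0.042 on TPM (limma) and -0.00094 in edgeR, so the separation in TPM depends on the scaling. With 85 to 135 counts per mouse, *Msx1* is a low gene. Its log2 difference between male and female mice was -0.01 (standard error 0.19), and its log2 fold change was -0.41 with sex as a covariate (unadjusted p = 0.0586, adjusted p = 0.733, edgeR) and -0.38 in the females alone (unadjusted p = 0.199, adjusted p = 0.853, edgeR).

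*Atoh8* (ENSMUSG00000037621.9), the other BMP target, had the lowest level of the 8. It had 0.72, 0.69, 1.19 and 1.28 CPM in WT 1 to 4 and 0.74, 0.49, 0.52 and 0.87 CPM in KO 1 to 4. WT 3 and WT 4, both female, stood above all KO mice, and WT 1 and WT 2 lay within the KO range. The mean was 0.97 ± 0.31 CPM in WT and 0.65 ± 0.18 CPM in KO (SD, n = 4 in each group). On the log2 scale the difference of KO from WT was -0.57 (standard error 0.30, 95% interval -1.25 to 0.12, unadjusted p = 0.0938, adjusted p = 0.9998, edgeR). On TPM in limma the log2 fold change was -0.62 (unadjusted p = 0.0362, adjusted p = 1.0 over all genes), where 266 of 17631 genes had an unadjusted p under 0.05. On that scale WT 2 was at 0.78 TPM, above the KO range of 0.30 to 0.55 TPM. Only 0.26 TPM of WT 2 was *Atoh8*-201, so this value leans on the split between transcripts that rests on few reads.

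*Klf10* (ENSMUSG00000037465.11), the early TGFβ target, had 17.8, 31.5, 20.8 and 16.9 CPM in WT 1 to 4 and 14.8, 11.1, 22.1 and 18.3 CPM in KO 1 to 4. The male WT 2 was the highest of all mice and the female KO 2 the lowest, and the groups overlapped. The mean was 21.8 ± 6.74 CPM in WT and 16.6 ± 4.72 CPM in KO (SD, n = 4 in each group). The fitted log2 difference of KO from WT was -0.39 (standard error 0.25, 95% interval -0.97 to 0.18, unadjusted p = 0.158, adjusted p = 0.9998, edgeR). Without WT 2 it was -0.16. With sex as a covariate it was -0.49 (unadjusted p = 0.0372, adjusted p = 0.690, edgeR). In that fit 1228 of 17669 genes had an unadjusted p under 0.05, against 333 in the main fit.

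*Pmepa1* (ENSMUSG00000038400.16), an inhibitor that TGFβ induces as feedback, was the most abundant of the 8. It had 96.8, 81.4, 103 and 87.6 CPM in WT 1 to 4 and 101, 69.1, 82.6 and 84.3 CPM in KO 1 to 4. KO 2 was the lowest mouse, and the other 3 KO mice lay within the WT range. The mean was 92.2 ± 9.69 CPM in WT and 84.2 ± 12.96 CPM in KO (SD, n = 4 in each group). The fitted log2 difference of KO from WT was -0.13 (standard error 0.12, 95% interval -0.41 to 0.14, unadjusted p = 0.303, adjusted p = 0.9998, edgeR). In the females alone, 3 WT and 2 KO mice, it was -0.32 (unadjusted p = 0.0374, adjusted p = 0.844, edgeR). In that fit 958 of 18041 genes had an unadjusted p under 0.05. *Pmepa1* had an unadjusted p under 0.05 in 1 of 19 alternatives to the main fit, this one. Only 1 WT mouse, WT 2, was male. Whether the fold change of any of the 8 genes differed between the sexes therefore cannot be told here.

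For 3 of the genes the fold change was near 0, with intervals that still allow moderate differences. *Tgfbi* (ENSMUSG00000035493.11) was at 3.53 ± 0.60 CPM in WT and 3.32 ± 0.14 CPM in KO (SD, n = 4 in each group), and the 95% interval of its log2 fold change ran from -0.41 to 0.23. *Ccn1* (ENSMUSG00000028195.5) was at 4.21 ± 0.90 CPM in WT and 4.20 ± 0.78 CPM in KO (SD, n = 4 in each group), with an interval from -0.45 to 0.44. *Tgif1* (ENSMUSG00000047407.18), a corepressor of SMAD2, was at 1.28 ± 0.56 CPM in WT and 1.31 ± 0.15 CPM in KO (SD, n = 4 in each group), with an interval from -0.67 to 0.74. In all 3, KO mice lay mostly inside the WT range, and the sign of the fold change was not stable when single mice were left out. *Tgif1* ranged from 0.63 CPM in WT 1 to 1.998 CPM in WT 4, so the WT mice spread more widely than the KO mice. The processed copy *Tgif1-ps* was at 0 in every mouse.

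**Figure D3:**
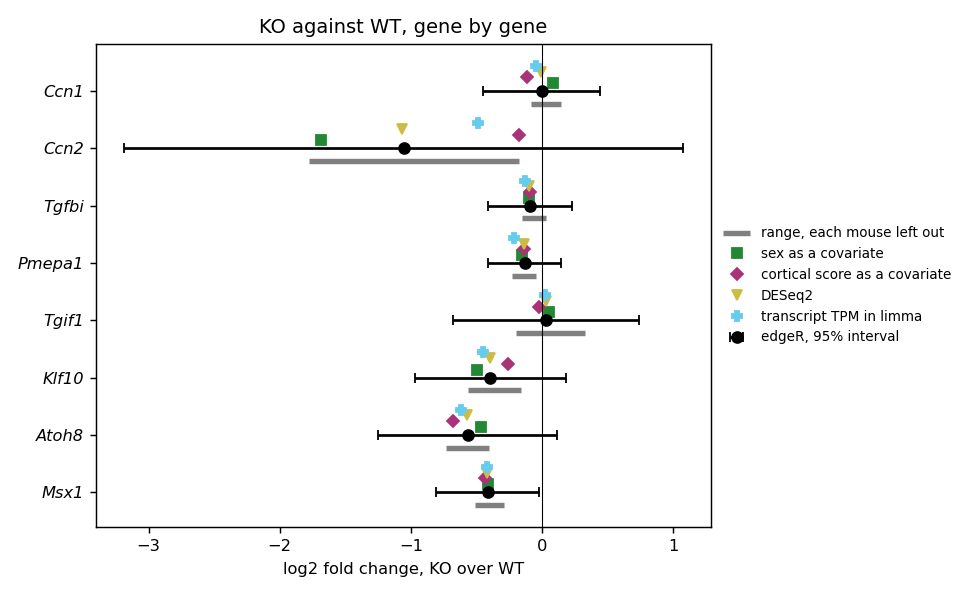
Log2 fold change of KO over WT for each gene with its 95% interval in edgeR (black), the range when each mouse was left out in turn (grey bar), and the values with sex or the cortical score as a covariate, in DESeq2 and from TPM in limma (coloured marks). *Msx1* has the only interval that stays below 0, from -0.81 to -0.02, and *Ccn2* the widest, from -3.19 to 1.08.

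*Ccn2* (ENSMUSG00000019997.12), also known as connective tissue growth factor, varied far more than the other genes. It had 14.3, 27.1, 1.36 and 2.94 CPM in WT 1 to 4 and 6.37, 2.07, 11.9 and 1.61 CPM in KO 1 to 4. High and low mice occurred in both groups, and the highest and the lowest were both WT. The coefficient of variation over the 8 mice was 106%, against 12.2 to 35.8% for the other 7 genes. The log2 fold change of KO over WT was -1.06 (standard error 0.94, 95% interval -3.19 to 1.08, unadjusted p = 0.291, adjusted p = 0.9998, edgeR), which is a fold of 0.481 with an interval from 0.11 to 2.11. Its counts ran from 64 to 1658 per mouse, so counting error was small beside this spread between mice. An antisense gene that overlaps *Ccn2*, *Gm15270*, reached at most 0.376 CPM, and whether the counting used strand is not stated.

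The spread of *Ccn2* went along with some genes of the cerebral cortex. *Ccn2* is a known marker of layer 6b, the deepest cortical layer, which lies close to the white matter above the ventricle. Among 17616 named genes tested, the one whose log2 CPM was most like that of *Ccn2* over the 8 mice was *Cplx3*, a complexin of layer 6b and subplate neurons, with Pearson's r of 0.985 and Spearman's rho of 0.905 (r = 0.979 without the 2 mice farthest from the median of *Cplx3*). *Cplx3* had 8.10, 20.1, 1.98 and 3.04 CPM in WT 1 to 4 and 5.49, 1.96, 10.2 and 1.62 CPM in KO 1 to 4, so WT 2 was highest in both genes, and WT 3, KO 2 and KO 4 were the 3 lowest in both. This gene was picked as the most alike, so no p is given. The next most alike were *Sstr2* (r = 0.975), a somatostatin receptor, and *Htra4* (r = 0.975).

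The other layer 6b markers of the list did not all share this spread. *Nr4a2* had an r of 0.884 with *Ccn2* over the 8 mice, and *Moxd1* (0.361), *Nxph4* (0.197) and *Tmem163* (-0.04) had lower values. The mean log2 CPM of all 5 markers gave r = 0.961 and rho = 0.976, and without *Cplx3* it gave r = 0.860 and rho = 0.905. These are descriptions, since the list holds the gene picked as most alike.

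The same relation was computed for each of the 8 genes with the mean log2 CPM of each of 13 lists of cell type markers, 104 relations in all, with exact permutation tests over the 8 mice and Benjamini-Hochberg adjustment over the 104. *Ccn2* and the 8 cortical excitatory markers gave r = 0.921 (exact permutation p = 0.00129, adjusted 0.0671) and r = 0.870 without the 2 farthest mice, but rho = 0.857 did not pass (exact permutation p = 0.0107, adjusted 0.186). *Atoh8* and microglia gave rho = 0.952 (exact permutation p = 0.00114, adjusted 0.0593), but r = 0.874 did not pass (exact permutation p = 0.00347, adjusted 0.102), and r was 0.704 without the 2 farthest mice. *Pmepa1* and striatal neurons gave rho = 0.929 (exact permutation p = 0.00223, adjusted 0.0774), but r = 0.704 did not pass (exact permutation p = 0.0478, adjusted 0.285), and r was 0.854 without the 2 farthest mice. Of the 104, 2 passed an adjusted p under 0.1 by r and 3 by rho, and the 1 that passed by both was *Ccn2* with the layer 6b list. Since that list holds *Cplx3*, the gene picked as most like *Ccn2*, this pass is a description and not a test. No test was made with the list without *Cplx3*. All 104 relations were computed on the same 8 mice, with sex and genotype pooled. Neither sex nor genotype alone holds enough mice for a correlation.

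**Figure D4:**
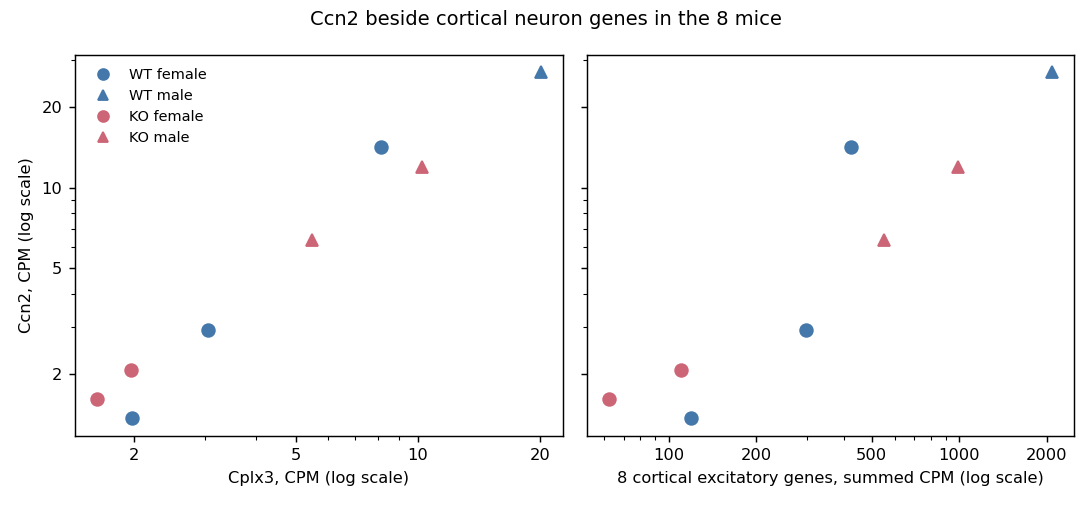
CPM of *Ccn2* in each mouse against the CPM of *Cplx3* (left) and the summed CPM of 8 cortical excitatory neuron markers (right), on log axes, WT in blue, KO in red, females as circles and males as triangles. *Ccn2* and *Cplx3* go up together from KO 4 (1.61 and 1.62 CPM) to the male WT 2 (27.1 and 20.1 CPM).

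*Ccn2* was at 6.37 to 27.1 CPM in the 3 male mice and at 1.36 to 14.3 CPM in the 5 female mice. All but 1 of the females lay below the males, and that female, WT 1, also had the highest cortical sum of the females. The log2 difference of male over female was 2.24 (standard error 0.65, unadjusted p = 0.00875, adjusted p = 0.149, edgeR with genotype in the fit), where the same test called 3.72% of all genes at an adjusted p under 0.1. The KO fold change of *Ccn2* depended on what else was in the fit. It was -1.68 with sex as a covariate (unadjusted p = 0.0338, adjusted p = 0.672, edgeR), -0.17 with the cortical score, the mean log2 CPM of the cortical markers (unadjusted p = 0.715), and 1.003 with both (unadjusted p = 0.234, edgeR in each). In the fit with sex alone, 1228 of 17669 genes had an unadjusted p under 0.05, against 333 in the main fit. The KO fold change of *Ccn2* was -0.17 without WT 2 and -1.78 without KO 3. On TPM in limma it was -0.49 (unadjusted p = 0.614).

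The other genes showed smaller differences between the sexes. *Klf10* was at 14.8 to 31.5 CPM in males and 11.1 to 20.8 CPM in females, a log2 difference of 0.52 (standard error 0.20, unadjusted p = 0.0311, adjusted p = 0.255, edgeR), in a comparison where 15.9% of all genes had an unadjusted p under 0.05. *Ccn1*, the closest relative of *Ccn2* here, was at 3.06 to 4.32 CPM in males and 3.56 to 5.403 CPM in females (log2 difference -0.36, standard error 0.18, adjusted p = 0.385, edgeR). The remaining 5 genes had log2 differences between -0.34 (*Atoh8*) and 0.05 (*Pmepa1*), with adjusted p-values of 0.669 or more (edgeR).

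The 8 genes did not move as 1 group across the mice. Of their 28 pairs, 17 had a correlation above 0 in log2 CPM, the median r was 0.03, and 0 of 28 passed (lowest adjusted exact permutation p 0.529). The extremes were *Tgfbi* with *Tgif1* (r = 0.757) and *Ccn1* with *Ccn2* (r = -0.80), which are both YAP targets as well. KO 2 had 7 of the 8 genes below their mean and KO 3 had 6, while WT 3 had 6 above it. In the marker lists, *Klf10* with neuroblasts had r = -0.89 (exact permutation p = 0.00392, adjusted 0.102, and r = -0.71 without the 2 farthest mice), which did not pass.

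**Figure D5:**
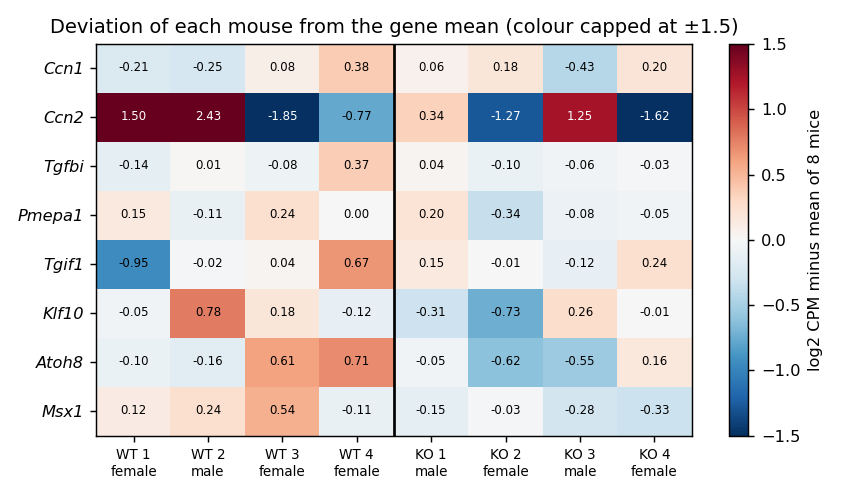
Difference of log2 CPM in each mouse from the mean of the 8 mice, one row per gene and one column per mouse, red above and blue below the mean. *Ccn2* runs from -1.85 in WT 3 to 2.43 in WT 2, and KO 2 is below the mean in 7 of the 8 genes.

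The genes most like each of the others, taken as the highest Pearson's r over the 8 mice among 17616 genes, were different from gene to gene. For *Pmepa1* they were *Ipo13* (r = 0.987), *Cnppd1* and *Tnks2*, and for *Klf10* they were the kinase gene *Lmtk2* (r = 0.979), *Rbfox3*, which encodes the neuronal nuclear marker NeuN, and *Atp2b2*, a calcium pump. *Atoh8* was most like *Ctdsp2* (r = 0.983), *Fosb* and *Taf1c*, and *Msx1* was most like *Gldc* (r = 0.927), *C130050O18Rik* and *Glyctk*. *Ccn1* was most like *Gm10012* (r = 0.981), *Ino80e* and *Pcbp1*, *Tgfbi* was most like *Rufy1* (r = 0.963), *Arl6ip4* and *0610009L18Rik*, and *Tgif1* was most like *Slc39a4* (r = 0.967), *Tcf3* and *Plat*. Each was chosen as a maximum over all genes, so these are descriptions.

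The rest of the pathway was read from lists written with earlier results of these data known. Of 8 ligands, 6 were below 0 and 2 above, with a median log2 fold change of -0.18, and 0 passed the adjusted test or had an unadjusted p under 0.05. Those with the smallest p were *Tgfb3* (-0.19) and *Bmp6* (-0.20) below 0, and *Bmp4* (0.28) and *Tgfb2* (0.09) above. Of 9 receptors, 7 were below 0 and 2 above, with a median of -0.07 and 0 passing either test. *Bmpr1b* (-0.18, unadjusted p = 0.0955, edgeR) and *Acvr1* (-0.20, unadjusted p = 0.0996, edgeR), both type I receptors for BMP, had the smallest p below 0, and *Tgfbr3* (0.07) and *Bmpr2* (0.0033) above. Of 5 SMADs, 3 were below and 2 above, with a median of -0.01 and 0 passing either test, from *Smad3* (-0.14) and *Smad1* (-0.11) to *Smad2* (0.04) and *Smad5* (0.05).

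Other targets were read in the same way. Of 14 further TGFβ targets, 13 were tested, 6 below 0 and 7 above, with a median of 0.03 and 0 passing either test. The feedback inhibitor *Smad7* (-0.13) and the fibronectin gene *Fn1* (-0.14) had the smallest p below 0, and the cell cycle inhibitors *Cdkn2b* (0.28) and *Cdkn1a* (0.13) above. Of 10 further BMP targets, which include the Id genes, 9 were tested, 7 below 0 and 2 above, with a median of -0.10 and 0 passing the adjusted test. There *Id3* (-1.001, unadjusted p = 4.5e-05, adjusted p = 0.286, edgeR) and *Id1* (-0.47, unadjusted p = 0.0179, adjusted p = 0.9998, edgeR) had an unadjusted p under 0.05, and *Bambi* (0.14) and *Id4* (0.05) had the smallest p above 0. Beside them, the log2 fold changes of *Msx1* (-0.41) and *Atoh8* (-0.57) were of the size of that of *Id1*, and no test of a difference between these genes was made.

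Paralogs of the 8 genes and genes of other pathways that act on them gave no call. Of 13 paralogs and relatives, 9 were tested, 7 below 0 and 2 above, with a median of -0.13, and the smallest p were those of *Ccn4* (-1.36, unadjusted p = 0.166, edgeR), *Klf9* (-0.13), *Msx3* (0.70, unadjusted p = 0.150, edgeR) and *Postn* (0.14). *Ccn4* was at 4.40 CPM in WT 2, at 0.29 to 0.68 CPM in WT 1, WT 3 and WT 4, and at 0.22 to 1.03 CPM in KO. Of 8 further targets of YAP and TEAD, 7 were tested, 5 below 0 and 2 above, with a median of -0.02, named by *Axl* (-0.13), *Lats2* (-0.03), *Nuak2* (0.51) and *Amotl1* (0.09). Of 10 immediate early genes, which respond to the same kinds of stimuli as *Klf10* and *Ccn1*, 5 were below and 5 above, with a median of 0.0083, named by *Fosb* (-0.17), *Egr1* (-0.15), *Btg2* (0.26) and *Fos* (0.31). In these 3 lists 0 genes passed the adjusted test or had an unadjusted p under 0.05 (edgeR).

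The 13 lists of cell type markers held 0 calls between KO and WT (edgeR, adjusted p under 0.1). The median log2 fold change was -0.85 for cortical excitatory neurons (8 of 8 below 0), -0.11 for layer 6b, -0.09 for striatal neurons (8 of 8 below 0), 0.09 for neuroblasts, 0.09 for ependymal cells, -0.13 for choroid plexus, -0.10 for astrocytes and stem cells, -0.07 for oligodendrocytes, -0.17 for microglia, -0.17 for border macrophages, 0.04 for endothelial cells, -0.24 for mural cells (8 of 8 below 0) and -0.22 for fibroblasts. The direction differed between lists. Above 0 were 7 of 8 neuroblast, 6 of 8 endothelial and 5 of 8 ependymal genes. Below 0 were 7 of 8 oligodendrocyte, 6 of 7 fibroblast, 4 of 7 choroid plexus, 3 of 5 layer 6b and 2 of 4 border macrophage genes. An unadjusted p under 0.05 was reached by *Pdgfrb* of the mural list, *Csf1r* of the microglial list, and *Gfap* and *Thbs4* of the astrocyte list, all below 0 in KO. In the microglial and the astrocyte list, 6 of 8 genes each were below 0 and 2 above. The part of these cell types in the values of the 8 genes was not tested, other than the cortical score given above.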

How the data were processed

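Per the labels and the methods, polyA libraries of periventricular tissue were sequenced, FASTQ files were made with bcl2fastq 2.20, and the authors ran Salmon (version not given in the sources used here) against Gencode M29. The deposited gene table holds estimated counts without normalization. The deposited transcript files hold estimated counts and TPM per transcript, as the authors' Salmon run gave them. How transcripts were summed to genes, and whether strand was used, is not given in the sources used here. Each of the 8 column totals equalled that mouse's transcript total within 1 count, and 0 columns were left over.

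Names from a table of identifiers matched 94.8% of the 54307 gene identifiers. Gencode M21 of GRCm38, the annotation used here, is older than the authors' and served for names and for summing TPM over transcripts (97.4% of transcripts and at least 99.2% of reads matched). RefSeq promoters on GRCm38.p6 were searched for motifs.

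After rounding of the counts, KO and WT were compared in edgeR 4.0.16 in R 4.3.3 (TMM, filterByExpr, quasi-likelihood test without covariates, Benjamini-Hochberg over 17669 genes, threshold 0.1). CPM are TMM-normalized, and log2 CPM has a prior count of 2. Male and female mice were compared in the same fit with genotype. Alternatives were DESeq2 1.42.0, limma 3.58.1 on log2(TPM + 0.1), other size factors and filters, covariates, females alone, and each mouse left out. Two-sided exact permutation tests of correlations ran over all orders of the mice with numpy 2.4.6. Ranks and the adjustment of these tests used scipy 1.17.1. On simulated counts of 17399 genes, 200 were changed by 2 on the log2 scale. The edgeR comparison of KO with WT recovered 193 of them and made 16 other calls, and it made 0 calls with none changed. The changed genes were drawn only from those above a mean CPM that *Atoh8* did not reach. Their change was also larger than the fitted change of any gene examined here, so the recovery does not speak to differences of that smaller size. In the deposited counts the same comparison did not call *Lrig1* (log2 fold change -3.80, adjusted p = 0.286).

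The genes, the lists and the tests were chosen with earlier results of these data known. The text names the 8 genes, *Lrig1*, the 2 genes of each pathway list in each direction with the smallest unadjusted p, and the 3 genes with the highest Pearson's r with each of the 8. Markers with an unadjusted p under 0.05, and *Tubb3*, *Dcx* and *Slc1a2*, were named after their values were seen. *Id3* and *Id1* fall under the rule for lists. The depth of 47887437 to 74482334 counts per mouse leaves *Atoh8*, *Tgif1* and *Msx1* at 29 to 135 counts per mouse, where counting error is large. No sequencing batch is given in the labels.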

Additional observations from a re-analysis of the deposited data

Results flagged for a closer look

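Of 50 groups of 4 mice in which values were checked for a mouse far from the others, 1 had one, or 2%, where chance gives about 1 in 20. The summed CPM of the 8 cortical excitatory neuron markers was 2091 in WT 2, the male WT mouse, and 120 to 423 in the other 3 WT mice, a gap of 0.846 of the range of the group, above the 95% critical value of Dixon's test. *Ccn2* (27.1 CPM) and *Klf10* (31.5 CPM) were also highest in this mouse. Without it, the log2 fold change of KO over WT was -0.17 for *Ccn2* and -0.16 for *Klf10*. No value of the 8 genes met the same criterion.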

How the results depend on the processing

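The 8 genes kept 0 calls under all 19 alternatives. Their median log2 fold change, -0.26, was -0.41 with sex and the cortical score together, -0.16 with the cortical score alone, and -0.32 to -0.16 when single mice were left out, the nearest to 0 without KO 2. It was below 0 throughout. *Msx1* (-0.67 to -0.29), *Atoh8* (-1.23 to -0.40), *Klf10* (-0.73 to -0.16) and *Pmepa1* (-0.41 to -0.05) were below 0 in all 19. The unadjusted p of *Msx1* was under 0.05 in 7 of them. Over all genes, 1 was called, 2 without a filter, 0 with a minimum of 10 counts, 2 with sex, 2 with the cortical score, 12 with DESeq2, 201 with DESeq2 and sex, 3 in the females alone, and 0 to 3 with a mouse left out.

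The sign turned for *Ccn1* (0.0017 with the minimum of 10 counts, 0.085 with sex, 0.082 with DESeq2 and sex, 0.089 in the females, -0.084 to 0.14 with a mouse left out) and for *Tgif1* (-0.019 with the cortical score, -0.41 with both covariates, -0.19 to 0.33 with a mouse left out), and for *Tgfbi* only without WT 4 (-0.15 to 0.032 over the mice left out). Both covariates together turned *Ccn2* to 1.003. These 2 alternatives with sex and the cortical score were chosen after seeing the data. With the cortical score, the male over female difference became -2.05 for *Ccn2*, 0.14 for *Ccn1*, 0.78 for *Tgif1*, 1.08 for *Atoh8* and 0.50 for *Msx1*. With a mouse left out, that difference ran from -0.024 to 0.086 for *Tgfbi*, -0.072 to 0.069 for *Msx1*, -0.23 to 0.081 for *Tgif1* and -0.072 to 0.24 for *Pmepa1*. It passed the threshold for *Ccn2* without a filter (2.23, adjusted p = 0.0099, edgeR) and without WT 1 (2.89, adjusted p = 0.0407), and for *Klf10* without KO 1 (0.68, adjusted p = 0.0904) and without KO 4 (0.75, adjusted p = 0.0864). The cause was not tested.

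The labels give no pairing of same-numbered mice. Their deviations correlated at 0.08, -0.22, -0.22 and 0.27, values that cannot settle whether such mice shared anything besides a number. With the replicate number as a block, 0 genes were called, 0 of the 8 among them, and *Ccn1* was at 0.0014. With 4 mice a group, 1 WT male and no batch in the labels, small differences in the low genes are beyond this depth.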
